A study of Saccharomyces cerevisiae with 26 samples.

Results

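The 10 genes described here encode the enzymes and the regulator of leucine synthesis in budding yeast, together with the steps it shares with valine and isoleucine. They were taken by name from the table of gene counts, which held 7036 genes: LEU1 (YGL009C), LEU2 (YCL018W), LEU3 (YLR451W), LEU4 (YNL104C), LEU9 (YOR108W), BAT1 (YHR208W), BAT2 (YJR148W), ILV2 (YMR108W), ILV3 (YJR016C) and ILV5 (YLR355C). Of these 10, 9 passed the filter on low counts and were tested among 4473 genes. LEU2 did not pass, because every strain lacks it.

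RNA-Seq and Ribo-Seq, the sequencing of mRNA fragments protected by ribosomes, were compared between strains lacking GIR2 or PUB1 and their parent. GIR2 encodes the partner of the GTPase Rbg2, and PUB1 encodes a poly(U)-binding protein. The gir2Δ strain carries gir2::KanMX and the pub1Δ strain a KanMX deletion of PUB1, both made by transformation for the study, and wt is BY4742 itself. All 3 strains therefore share MATalpha his3delta1 leu2delta0 lys2delta0 ura3delta0, and all were grown in YPD, a rich medium, to exponential phase. There were 4 gir2Δ, 5 pub1Δ and 5 wt libraries of RNA-Seq, and 4 of each strain in Ribo-Seq. The labels place each library in 1 of 4 batches. Batch 1 held libraries of every strain, batch 2 held gir2Δ alone, batch 3 held pub1Δ alone, and batch 4 held 2 wt libraries of each assay and 1 pub1Δ RNA-Seq library. With batch as a term of the model, the gir2Δ estimates thus rest on replicate 4 of each assay, and the pub1Δ estimates on replicates 4 and 5 in RNA-Seq and on replicate 4 in Ribo-Seq. Nothing in the labels says whether replicates came from separate cultures, so p-values measure the spread between these libraries, which may be technical.

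Leucine synthesis branches from valine synthesis. Ilv2, Ilv5 and Ilv3, in this order, make the keto acid from which valine is formed directly, and Ilv2, Ilv5 and Ilv3 also act on the branch to isoleucine. For leucine, the α-isopropylmalate synthases Leu4 and Leu9 extend this keto acid, Leu1 isomerizes the product, Leu2 oxidizes it, and the aminotransferases Bat1, in mitochondria, and Bat2, in the cytosol, finish the 3 amino acids. α-Isopropylmalate also turns the transcription factor Leu3 into an activator, while the general amino acid control factor Gcn4 acts on many amino acid genes. A leu2 strain has a gap in this path and takes its leucine from the medium.

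The binding letters of both factors were searched in the 250 bases before and 50 bases after each start codon, on both strands, in the RefSeq sequence of the R64 assembly. The inner part of the Leu3 site, CGGNNCCG, was present in 4 of the 10 promoters and in 0.9% of 6001 promoters. The Gcn4 core, TGACTC, was present in 5 of the 10 and in 7.98% of all. The 2 sets of letters do not overlap in any of these 10 promoters. The matches are shown as a description of the promoters, and a link between them and the levels was not tested. The capitals mark the searched letters, 5′ to 3′ on the strand of the gene. The 4 promoters with the Leu3 letters were those of LEU1 (chrVII:478852-478877, minus strand), LEU2 (chrIII:91118-91143, plus strand), BAT1 (chrVIII:517377-517402, plus strand) and ILV3 (chrX:466370-466395, minus strand):
LEU1: cgaaaattcCGGGACCGgcgaaattt
LEU2: tgagagcgcCGGAACCGgcttttcat
BAT1: tgtgtttgcCGGTACCGgcctttaag
ILV3: cgctgcgagCGGAACCGggcctgaaa
The matches to the Gcn4 letters lay in the promoters of LEU3 (chrXII:1035843-1035866, plus strand), LEU4 (chrXIV:426841-426864, minus strand), BAT1 (chrVIII:517352-517375, plus strand), ILV3 (chrX:466329-466352, minus strand) and ILV5 (chrXII:839379-839402, minus strand):
LEU3: tgatcaaaaTGACTCgctgcgtaa
LEU4: acgtgtaagTGACTCagttctttc
BAT1: gccttcttaTGACTCaaaattcta
ILV3: ctctccagaTGACTCagtaatata
ILV5: gacctaactTGACTCaatggcttt
BAT1 and ILV3 held both sets of letters, and LEU9, BAT2 and ILV2 held neither in this window. These are matches of letters in the reference sequence, and binding was not measured.

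The deleted genes followed the strain labels. GIR2 had 0.342 to 4.75 CPM, which are read counts scaled to the effective size of each library, in gir2Δ RNA-Seq, against 162 to 218 CPM in wt RNA-Seq. PUB1 had 0.287 to 18.9 CPM in pub1Δ RNA-Seq, against 268 to 426 CPM in wt RNA-Seq. For replicate 1 of pub1Δ in RNA-Seq, gir2 stands in the genotype label, and this library was kept with pub1Δ by its title and strain label. GIR2 had 169 to 256 CPM across the 5 pub1Δ RNA-Seq libraries, this one included. RNA-Seq libraries held 2217490 to 3896827 counts. Ribo-Seq libraries held 540986 to 3123180 counts.

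LEU2 encodes 3-isopropylmalate dehydrogenase and lies at chromosome III 91324 to 92418 on the plus strand, as a single coding exon. It had 0 counts in all 14 RNA-Seq libraries. A count of 0 allows up to 3 counts, which is 0.770 to 1.35 CPM depending on the library. The 12 Ribo-Seq libraries held 0 to 3 counts each and 15 in all, 5 in each strain. These values check the leu2 deletion of the parent in every library of both assays. The nearest protein-coding gene downstream, NFS1 (YCL017C), which encodes a cysteine desulfurase, stood at 92.9 to 163 CPM across the RNA-Seq libraries. The nearest one upstream, YCL019W, was not analysed here.

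The other 9 genes ranged widely in level. Per kilobase of coding sequence, ILV5, the reductoisomerase of the shared path, was the highest of them in wt RNA-Seq, at 1432 ± 419 CPM per kb (SD, n = 5). BAT1 (529 ± 112 CPM per kb) and the dihydroxyacid dehydratase gene ILV3 (498 ± 76.1 CPM per kb) followed and did not differ beyond their spread. LEU1, the isomerase gene, had 326 ± 56.0 CPM per kb, BAT2 263 ± 29.0 CPM per kb and ILV2, the acetolactate synthase gene, 223 ± 26.9 CPM per kb in wt RNA-Seq, and neighbours in this part of the order had overlapping spreads. LEU4 and LEU9 had 149 ± 78.5 and 121 ± 44.4 CPM per kb, with SDs that reflect 2 separate sets of libraries described below. The regulator LEU3 was lowest, at 25.1 ± 3.16 CPM per kb. The wt level of ILV5 was at percentile 96.6 of 4463 tested genes with a RefSeq length, and that of LEU3 at percentile 18.1. Across the libraries of all strains, LEU3 ranged from 55.9 to 79.5 CPM and ILV2 from 376 to 529 CPM in RNA-Seq.

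Ribosome footprints spread these genes further apart. In wt Ribo-Seq, ILV5 had 2909 ± 102 CPM per kb (SD, n = 4), LEU1 633 ± 61.3 CPM per kb, BAT1 624 ± 60.8 CPM per kb and ILV3 589 ± 62.4 CPM per kb. LEU1, BAT1 and ILV3 did not differ beyond their spread. ILV2 had 374 ± 2.64 CPM per kb and BAT2 242 ± 12.6 CPM per kb, and the lower end held LEU4 at 135 ± 102, LEU9 at 50.4 ± 34.4 and LEU3 at 7.68 ± 0.965 CPM per kb. The LEU3 values rest on 12 to 71 footprint counts per library over the 3 strains, the thinnest of the 9 genes.

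**Figure D1:**
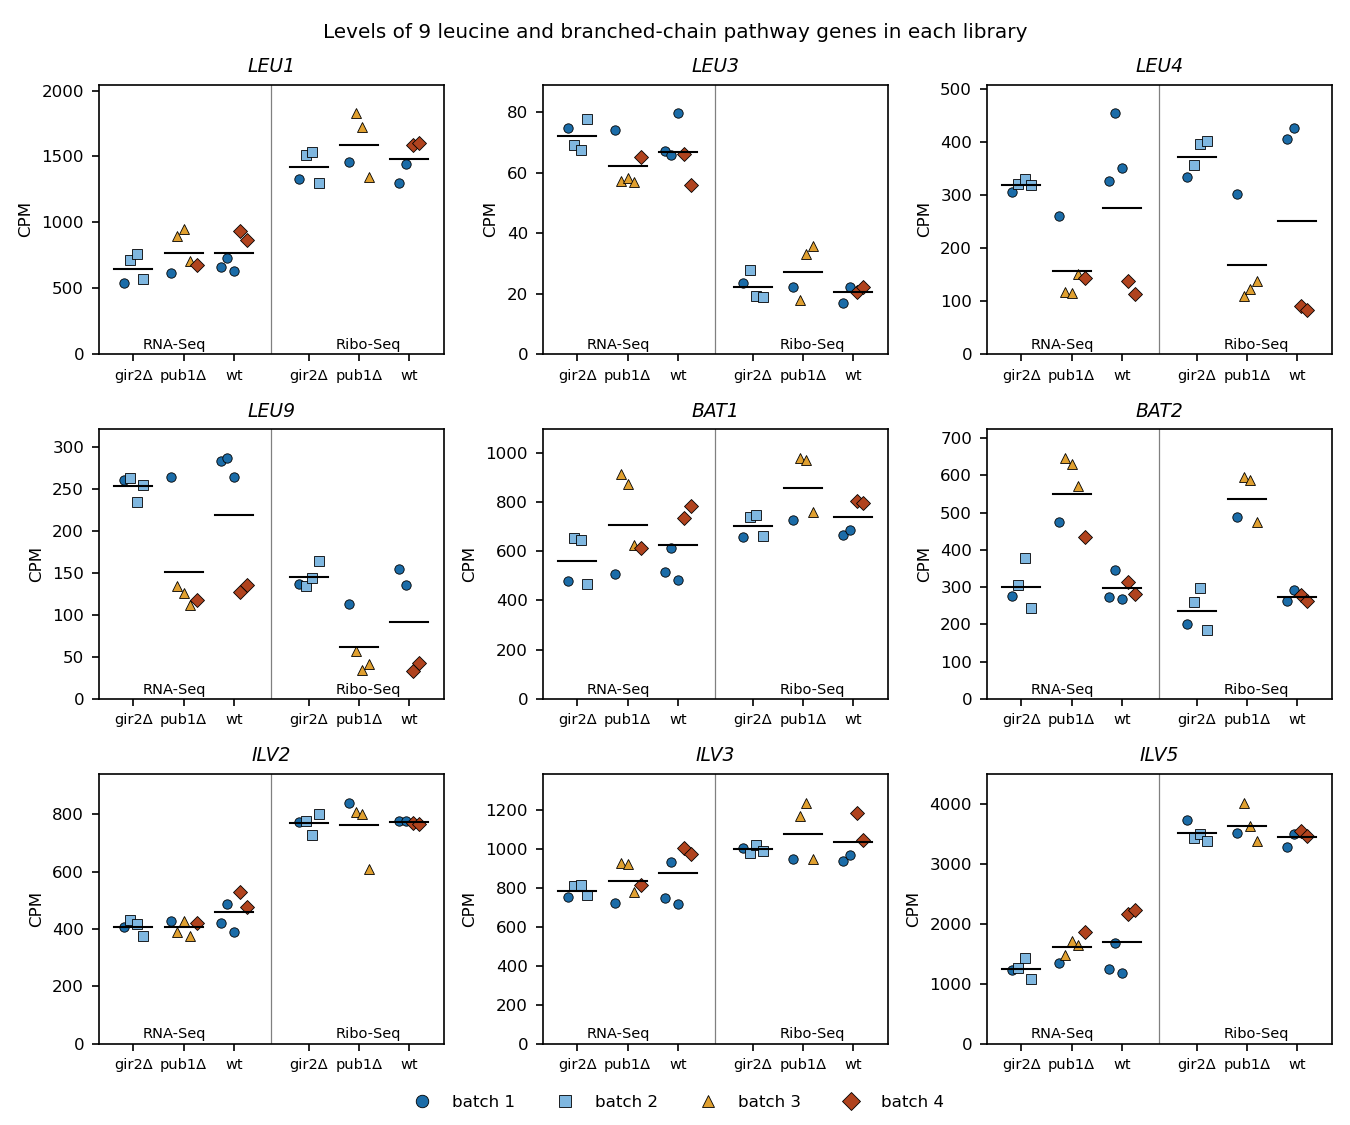
Normalised level (CPM, linear axis) of 9 pathway genes in each library, by strain and assay, with a horizontal line at the mean of each group and the batch given by colour and shape. LEU4 and LEU9 are low in the libraries of batches 3 and 4 in both assays, and BAT2 is above the wt range in every pub1Δ library.

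Footprints relative to mRNA, the ribosome occupancy, set apart the same genes. The log2 ratio of Ribo-Seq CPM to RNA-Seq CPM was computed within pairs of libraries of the same strain, replicate number and batch, of which there were 4 for gir2Δ, 3 for pub1Δ and 4 for wt. In wt it was 0.95 ± 0.35 for ILV5, 0.90 ± 0.10 for LEU1 and 0.69 ± 0.14 for ILV2 (SD, n = 4), at the 97.7th, 97.4th and 95.6th percentile of the tested genes. BAT1 (0.17 ± 0.15), ILV3 (0.18 ± 0.13) and BAT2 (−0.15 ± 0.08) were closer to 0 on this log2 scale, at percentiles 86.4, 86.7 and 74.1 of the tested genes. LEU9 (−1.38 ± 0.49) and LEU3 (−1.62 ± 0.27) were lowest, at the 17.5th and 11.7th percentile. LEU4, whose product catalyses the same reaction as that of LEU9, stood at −0.20 ± 0.40 and the 71.5th percentile. In every pair of libraries, LEU4 had a higher log2 occupancy than LEU9. Ratios are relative to the total of each assay, so 0 is no absolute reference.

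**Figure D2:**
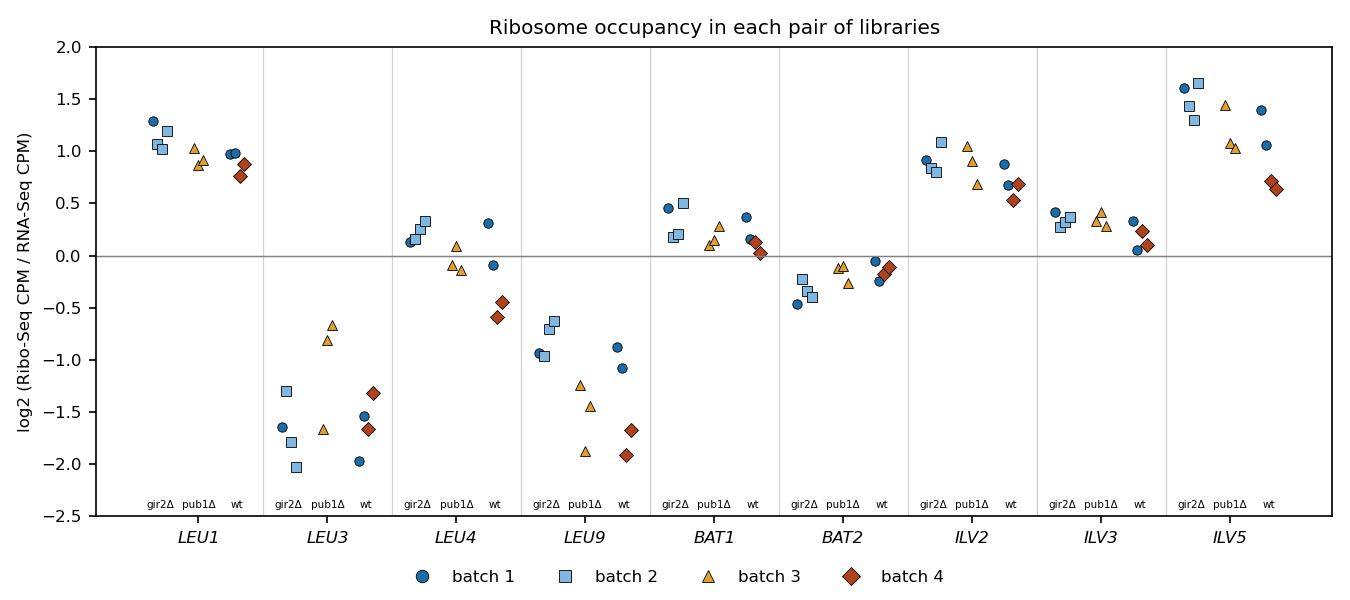
Log2 ratio of Ribo-Seq CPM to RNA-Seq CPM in each pair of libraries of the same strain, replicate number and batch, for 9 genes and 3 strains. ILV5, LEU1 and ILV2 lie above 0.5 in every pair, and LEU9 and LEU3 lie below −0.5 in every pair.

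The difference among libraries that moved the pathway most was that between batches, and it was seen without any difference in strain. LEU4 and LEU9 had the largest changes of the members. LEU4 lies at chromosome XIV 424895 to 426754 on the minus strand, and LEU9 at chromosome XV 523027 to 524841 on the plus strand, each as 1 coding exon. In wt RNA-Seq, LEU4 had 137 and 114 CPM in batch 4, against 327, 454 and 351 CPM in batch 1. In wt Ribo-Seq it had 91.2 and 83.3 CPM in batch 4, against 406 and 425 CPM in batch 1. LEU4 thus fell in batch 4 to 0.321 times its batch 1 level in RNA-Seq (log2 fold change −1.64, SE 0.15, adjusted p = 1.13e-07, edgeR quasi-likelihood test) and to 0.210 times in Ribo-Seq (−2.25, SE 0.12, adjusted p = 1.1e-07). LEU9 behaved likewise, with 127 and 136 CPM in batch 4, against 283, 286 and 264 CPM in batch 1 in wt RNA-Seq, and 33.4 and 42.3 CPM in batch 4, against 154 and 136 CPM in batch 1 in wt Ribo-Seq. Its log2 fold change was −1.13 in RNA-Seq (SE 0.11, adjusted p = 3.6e-07) and −1.92 in Ribo-Seq (SE 0.16, adjusted p = 4.1e-06). No library of batch 4 reached the range of batch 1 for either gene. Such separation was common among the pathway genes, with so few wt libraries. In RNA-Seq 4 of the 9 members lay wholly above and 2 wholly below the batch 1 range, and in Ribo-Seq 3 and 3. Of the 9 further genes of branched-chain metabolism described below, 3 lay above and 6 below in RNA-Seq, and 1 and 8 in Ribo-Seq. The share over all tested genes is not given, so these counts do not set the pathway apart from other genes. Many other genes fell as far, since the fold change of LEU4 was at percentile 6.46 (RNA-Seq) and 9.93 (Ribo-Seq) of all tested genes, and that of LEU9 at percentile 10.44 (RNA-Seq) and 11.42 (Ribo-Seq).

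The other members moved little or upward between the same wt libraries. LEU1 had 931 and 869 CPM in batch 4, against 662, 727 and 630.5 CPM in batch 1 in wt RNA-Seq. BAT1 had 735 and 783 CPM in batch 4, against 514, 613 and 483 CPM in batch 1. ILV5 had 2175 and 2233 CPM in batch 4, against 1245, 1675 and 1178 CPM in batch 1. These 3 genes were called higher in batch 4 in RNA-Seq, with log2 fold changes of 0.37 for LEU1 (SE 0.11, adjusted p = 0.0204), 0.45 for BAT1 (SE 0.12, adjusted p = 0.0094) and 0.64 for ILV5 (SE 0.14, adjusted p = 0.00217). In all, 5 of the 9 tested members were called in RNA-Seq, 3 higher and 2 lower, beside 30.3% of all tested genes, so the share of members was 5 of 9 against a high background. The median log2 fold change of the 9 was 0.17, and that of all tested genes −0.03.

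In Ribo-Seq 5 of the 9 were called as well, beside 31.1% of all tested genes. LEU1 had 1585 and 1604 CPM in batch 4, against 1297 and 1440 CPM in batch 1, a log2 fold change of 0.22 (SE 0.07, adjusted p = 0.0387). BAT1 had 803 and 795 CPM in batch 4, against 666 and 684 CPM in batch 1, a log2 fold change of 0.25 (SE 0.08, adjusted p = 0.0309). ILV3 had 1186 and 1048 CPM in batch 4, against 939.8 and 970.4 CPM in batch 1, a log2 fold change of 0.23 (SE 0.07, adjusted p = 0.0404). The rises were small beside the falls of LEU4 and LEU9, and the calls of LEU1, BAT1 and ILV3 depended on single libraries. In RNA-Seq the count of called members was 3 without wt replicate 1 or 3, when LEU4, LEU9 and ILV5 were called, beside 21.7% and 18.2% of all tested genes. It was 4 without wt replicate 2 or 5, beside 28% and 23.1%, and 7 without wt replicate 4, beside 38%. In Ribo-Seq it was 2 without wt replicate 1, when LEU4 and LEU9 alone were called, beside 21.1%. It was 4 without wt replicate 2, beside 38.5%, and 3 without wt replicate 3 or 4, beside 27.7% and 18.5%. With DESeq2, LEU4 and LEU9 were likewise the 2 members called in Ribo-Seq, beside 21% of all tested genes. LEU3, BAT2 and ILV2 were called in neither assay, with log2 fold changes of −0.27 to 0.17.

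Other genes of branched-chain metabolism were called too. Of 9 further genes, 6 were called in wt RNA-Seq, 2 higher and 4 lower in batch 4, beside 30.3% of all tested genes (455 higher and 900 lower). In wt Ribo-Seq 6 were called, 1 higher and 5 lower, beside 31.1% of all tested genes (499 higher and 894 lower). ILV1, which encodes the threonine deaminase that opens the isoleucine branch, had a log2 fold change of −1.48 in RNA-Seq (SE 0.12, adjusted p = 3.49e-08) and −1.96 in Ribo-Seq (SE 0.13, adjusted p = 7.44e-07). The amino acid permease genes BAP2, BAP3 and TAT1, which bring branched-chain and other amino acids across the plasma membrane, had log2 fold changes of −1.01, −1.49 and −1.10 in RNA-Seq and of −2.94, −3.14 and −2.98 in Ribo-Seq, all of them called. The falls of these 3 genes were thus steeper in footprints than in mRNA. OAC1, a mitochondrial carrier gene whose product also exports isopropylmalate, was called in Ribo-Seq alone (−0.52, SE 0.12, adjusted p = 0.0077), and its log2 fold change in RNA-Seq was −0.27 (adjusted p = 0.102). In the opposite direction, GDH1, the NADP-dependent glutamate dehydrogenase gene, was called in both assays (0.37 in RNA-Seq and 0.28 in Ribo-Seq). ILV6, the regulatory subunit of acetolactate synthase, was called higher in RNA-Seq (0.52, SE 0.13, adjusted p = 0.00562). The 2 genes called in neither assay were ARO10, a decarboxylase gene of the Ehrlich pathway (−0.35 in RNA-Seq, adjusted p = 0.0764), and MMF1, a mitochondrial protein gene linked to isoleucine synthesis (−0.18 in Ribo-Seq, adjusted p = 0.097).

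**Figure D3:**
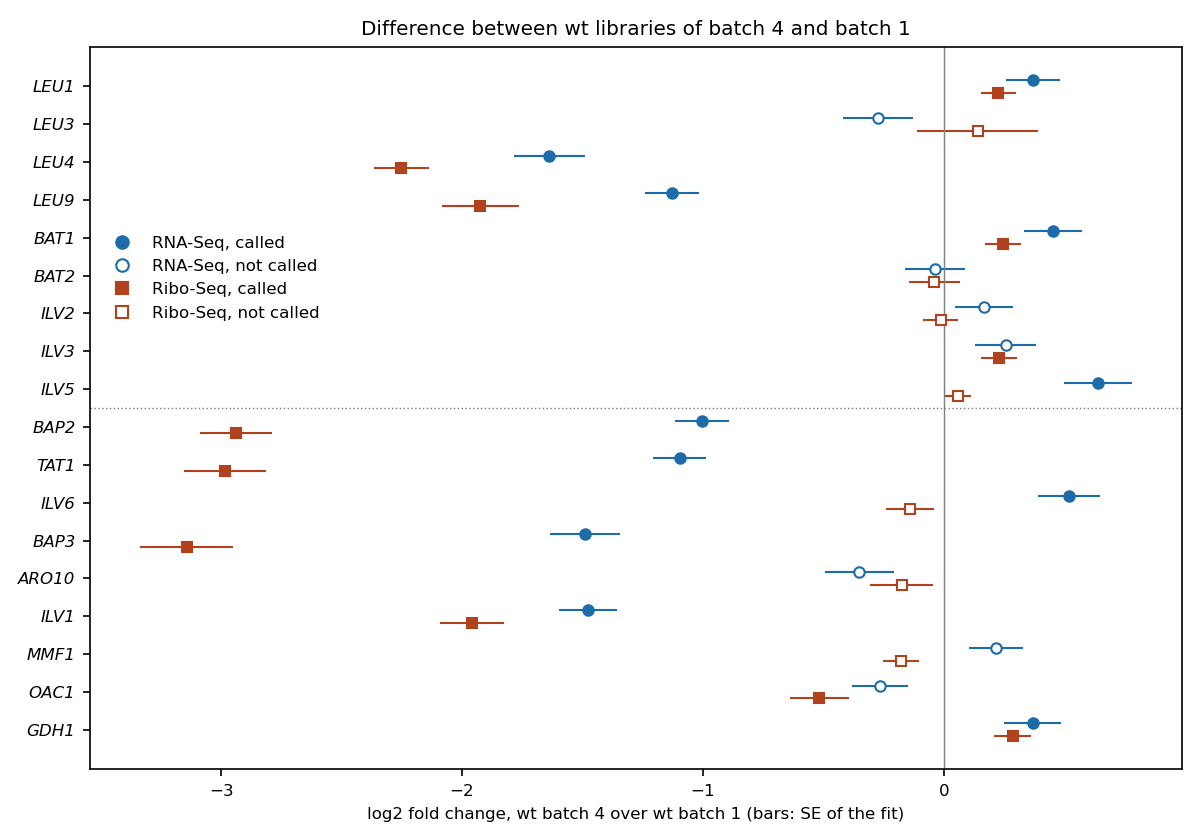
Log2 fold change between wt libraries of batch 4 and batch 1, with its standard error, for 9 members (above the dotted line) and 9 other genes of branched-chain metabolism (below it), in RNA-Seq and Ribo-Seq. Filled points passed an adjusted p of 0.05. LEU4, LEU9, ILV1, BAP2, BAP3 and TAT1 lie at −1.01 or lower in both assays.

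Whether footprints and mRNA differed in their response to batch was tested in wt as the interaction of batch and assay, a comparison added after the values had been seen. LEU9 was the 1 member of 9 called, beside 13.0% of all tested genes, with a log2 difference of −0.65 (SE 0.20, adjusted p = 0.0442). Its log2 occupancy was −1.91 and −1.67 in batch 4, against −0.87 and −1.07 in batch 1. The call was lost when any wt library other than RNA-Seq replicate 4 or Ribo-Seq replicate 3 was left out, with adjusted p of 0.0598 to 0.201. In those fits 0 members were called, beside 7.71% to 10.7% of all tested genes. Without RNA-Seq replicate 4, LEU4, LEU9 and ILV5 were called, beside 18.9%. In the full comparison ILV5 had a log2 difference of −0.44 (SE 0.20, adjusted p = 0.168). Of the other pathway genes, BAP2, TAT1 and BAP3 were called, at −1.79, −1.74 and −1.51, and ILV6 had −0.51 (adjusted p = 0.0937). The median over all tested genes was 0.09 with TMM factors and −0.04 with median-of-ratios factors, and LEU9 stood at −0.65 with TMM factors and at −0.78 with median-of-ratios factors.

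The pub1Δ libraries repeated the batch pattern of LEU4 and LEU9. In pub1Δ RNA-Seq, LEU4 had 117, 115, 151 and 143 CPM in batches 3 and 4, against 261 CPM in the single library of batch 1. In pub1Δ Ribo-Seq it had 109.8, 123 and 137 CPM in batch 3, against 302 CPM in the library of batch 1. LEU9 had 134, 126, 112 and 118 CPM in batches 3 and 4, against 264 CPM in batch 1 in pub1Δ RNA-Seq, and 56.4, 34.02 and 41.0 CPM in batch 3, against 113 CPM in batch 1 in pub1Δ Ribo-Seq. The batch 1 library was the highest pub1Δ library for both genes in both assays. The gir2Δ libraries, all in batches 1 and 2, were uniformly high, with 306 to 331 CPM of LEU4 and 235 to 262 CPM of LEU9 in RNA-Seq and 334 to 401 CPM of LEU4 and 135 to 164 CPM of LEU9 in Ribo-Seq.

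Over all strains, LEU4 had 114 to 151 CPM in the 6 RNA-Seq libraries of batches 3 and 4 (median 127 CPM) and 261 to 454 CPM in the 8 of batches 1 and 2 (median 324 CPM). In Ribo-Seq the ranges were 83.3 to 137 CPM in 5 libraries of batches 3 and 4 and 302 to 425 CPM in 7 libraries of batches 1 and 2. For LEU9 they were 112 to 136 CPM in batches 3 and 4 and 235 to 286 CPM in batches 1 and 2 in RNA-Seq, and 33.4 to 56.4 CPM in batches 3 and 4 and 113 to 164 CPM in batches 1 and 2 in Ribo-Seq. In each assay taken alone, LEU4 and LEU9 were the 2 of 9 members below without overlap, beside 15.7% of all tested genes in RNA-Seq and 17.1% in Ribo-Seq. The share of all genes below in both assays together is not given. BAT1 lay above without overlap in Ribo-Seq alone, at 761 to 978 CPM in batches 3 and 4 and 658 to 747 CPM in batches 1 and 2, as did 5.50% of tested genes. None of the members lay above in RNA-Seq, where 4.29% of tested genes did. Strain and batch are partly mixed in these sets, since batch 3 held pub1Δ alone and batch 2 gir2Δ alone. The counts are shares of a library, so less mRNA of a gene and more of other mRNAs cannot be told apart. Ribo-Seq depth was mostly lower in batches 3 and 4 (540986 to 1570853 counts in batches 3 and 4 and 1517430 to 3123180 counts in batches 1 and 2), with overlapping ranges, and RNA-Seq depth overlapped widely (2241017 to 3896827 counts in batches 3 and 4 and 2217490 to 3502037 counts in batches 1 and 2). The part of depth in the Ribo-Seq difference was not tested.

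LEU4 and LEU9 are close copies, which could have mixed their counts. Their coding sequences were identical at 79.4% of 1808 aligned positions, with a longest shared run of 41 bases, and 2.56% of the 28-base windows of LEU4 and 2.63% of those of LEU9 occurred more than once in the genome. BAT1 and BAT2 were identical at 72.2%, with a longest shared run of 17 bases and no repeated window. In counts per coding length, LEU4 over LEU9 ranged from 0.818 to 1.55 over the RNA-Seq libraries and from 1.90 to 3.52 over the Ribo-Seq libraries, so the 2 synthase genes had similar mRNA levels and LEU4 had more footprints in every library. Across libraries, the log2 CPM of LEU4 and LEU9 had a Pearson r of 0.94 over 14 RNA-Seq libraries and 0.96 over 12 Ribo-Seq libraries. That of LEU1 and BAT1 was 0.95 and 0.91. LEU4 and BAT1 ran against each other, with r of −0.75 and −0.76. These are descriptions of libraries that share batches. Since some members ran against each other, the mean profile of the 9 members mixes opposed profiles. The genes most like this mean, picked as the highest of all tested genes outside the 9, were OAC1 (r of 0.68 in RNA-Seq and 0.87 in Ribo-Seq), GMC1 (0.65 and 0.74) and ARN1 (0.65 and 0.83).

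Between pub1Δ and wt, BAT2 had the largest fold change of the members in both assays, although it did not pass the threshold. BAT2 encodes the cytosolic branched-chain aminotransferase and lies at chromosome X 705744 to 706874 on the plus strand, in 1 coding exon. It had 646, 629, 571, 434 and 473 CPM in pub1Δ RNA-Seq, against 274, 314, 283, 347 and 269 CPM in wt RNA-Seq. In Ribo-Seq it had 595, 588, 476 and 487 CPM in pub1Δ, against 264, 278, 262 and 293 CPM in wt. Every pub1Δ library lay above every wt library in both assays. In each assay alone, 4.20% (RNA-Seq) and 4.11% (Ribo-Seq) of all tested genes did not overlap, in either direction. The share of genes without overlap in both assays together is not given. Within batch 1, RNA-Seq gave 473 CPM in pub1Δ, against 274, 347 and 269 CPM in wt, and within batch 4 it gave 434 CPM in pub1Δ, against 314 and 283 CPM in wt. Ribo-Seq allowed this within batch 1 alone, with 487 CPM in pub1Δ, against 264 and 293 CPM in wt. BAT2 itself was not called between the wt libraries of batches 4 and 1, at a log2 fold change of −0.04 in each assay.

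The fitted log2 fold change of BAT2 was 0.61 in RNA-Seq (SE 0.14, 1.53-fold, edgeR quasi-likelihood adjusted p = 0.14) and 0.81 in Ribo-Seq (SE 0.19, 1.75-fold, adjusted p = 0.13), at the 99.4th and 99.6th percentile of all tested genes, so neither passed the threshold. The call depended on the model. BAT2 was called in both assays with DESeq2 (adjusted p = 0.0231 in RNA-Seq and 0.047 in Ribo-Seq), with ComBat-seq, without a batch term and with batch as 2 levels, and in Ribo-Seq also with no filter or with pub1Δ and wt alone in the fit. Each of these fits called more of all tested genes than the main model (0.0447% in RNA-Seq and 0.134% in Ribo-Seq). The shares were 0.246% in each assay with DESeq2 and 11% and 12.2% with ComBat-seq. They were 0.805% and 0.156% without a batch term, and 3.02% and 1.68% with batch as 2 levels. In Ribo-Seq they were 0.583% with no filter and 0.38% with pub1Δ and wt alone. It was not called in any fit that left out a single library. Its log2 fold change then stayed between 0.54 and 0.68 in RNA-Seq and between 0.74 and 0.89 in Ribo-Seq. The Ribo-Seq fit without pub1Δ replicate 4 could not be made. Leaving out a pub1Δ library of batch 3 could hardly move the estimate, since that batch held pub1Δ alone. Its log2 difference in ribosome occupancy was 0.22 (SE 0.27, adjusted p = 1). The ratio of BAT1 to BAT2, in counts per coding length, was 1.03 to 1.35 in pub1Δ RNA-Seq, against 1.69 to 2.65 in wt RNA-Seq, and 1.43 to 1.58 in pub1Δ Ribo-Seq, against 2.24 to 2.90 in wt Ribo-Seq. BAT1 had 508 to 913 CPM in pub1Δ RNA-Seq, against 483 to 783 CPM in wt RNA-Seq, so that the shift of the ratio came with overlapping levels of BAT1.

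**Figure D4:**
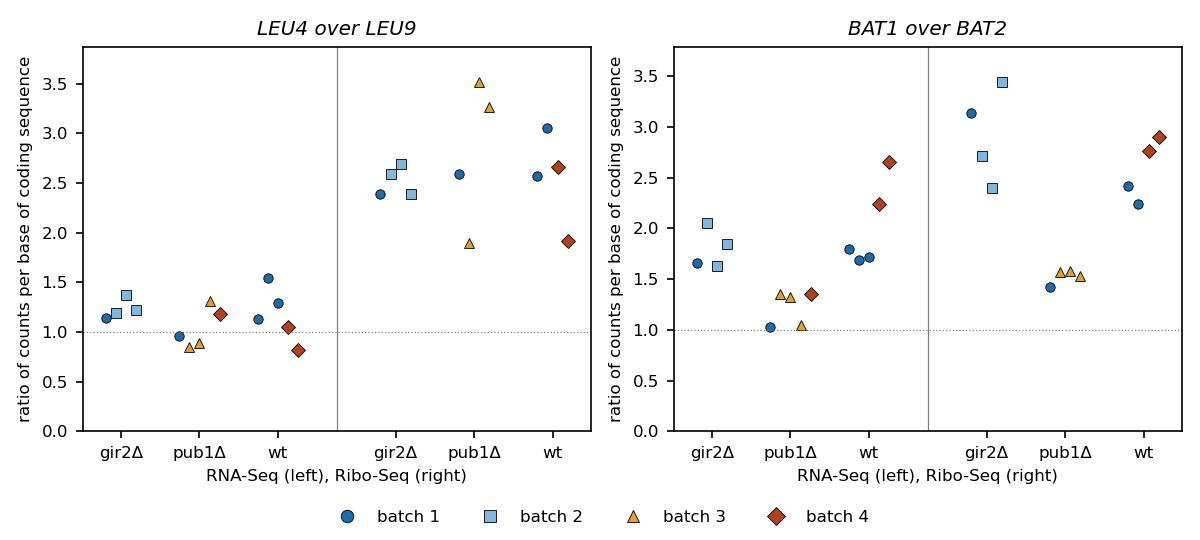
Ratio of counts per base of coding sequence for LEU4 over LEU9 (left) and BAT1 over BAT2 (right) in each library, by strain and assay, with the batch given by colour and shape and a dotted line at 1. BAT1 over BAT2 is lower in every pub1Δ library than in every wt library of the same assay, while LEU4 over LEU9 is higher in Ribo-Seq than in RNA-Seq.

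With batch and strain as terms in edgeR, no member was called between pub1Δ and wt. In RNA-Seq 0 of 9 were called, beside 0.0447% of all tested genes, and 1 (BAT2) had an unadjusted p under 0.05, beside 9.39%. In Ribo-Seq 0 of 9 were called, beside 0.134% of all genes, and 2 (BAT2 and LEU4) had an unadjusted p under 0.05, beside 7.91%. LEU4 had a Ribo-Seq log2 fold change of −0.46 (SE 0.13, adjusted p = 0.246), which rests on the 302 CPM of the pub1Δ library and the 406 and 425 CPM of the wt libraries in batch 1. This value turned to 0.01 with batch as 2 levels, and LEU4 was called with ComBat-seq, beside 12.2% of all tested genes. In each assay taken alone, BAT2 was the 1 member of 9 whose pub1Δ and wt libraries did not overlap. Beside it, 4.20% of all genes in RNA-Seq and 4.11% in Ribo-Seq did not overlap, in either direction. In ribosome occupancy 0 of 9 were called, beside 0% of all genes, and 0 had an unadjusted p under 0.05, beside 3.76%. DESeq2 also called 0 of 9 in occupancy, beside 0.0224% of all genes. The largest occupancy difference was that of LEU1, at 0.38 (SE 0.23, adjusted p = 1), and it was 0.13 without a batch term and 0.21 with batch as 2 levels. The median log2 fold change of the 9 members was −0.13 in RNA-Seq, 0.09 in Ribo-Seq and 0.22 in occupancy, and that of all tested genes was −0.0009, −0.0244 and 0.0078. Of the other pathway genes, ILV6 and GDH1 had an unadjusted p under 0.05 in RNA-Seq, both with a log2 fold change of −0.29 (adjusted p = 0.403 and 0.469).

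**Figure D5:**
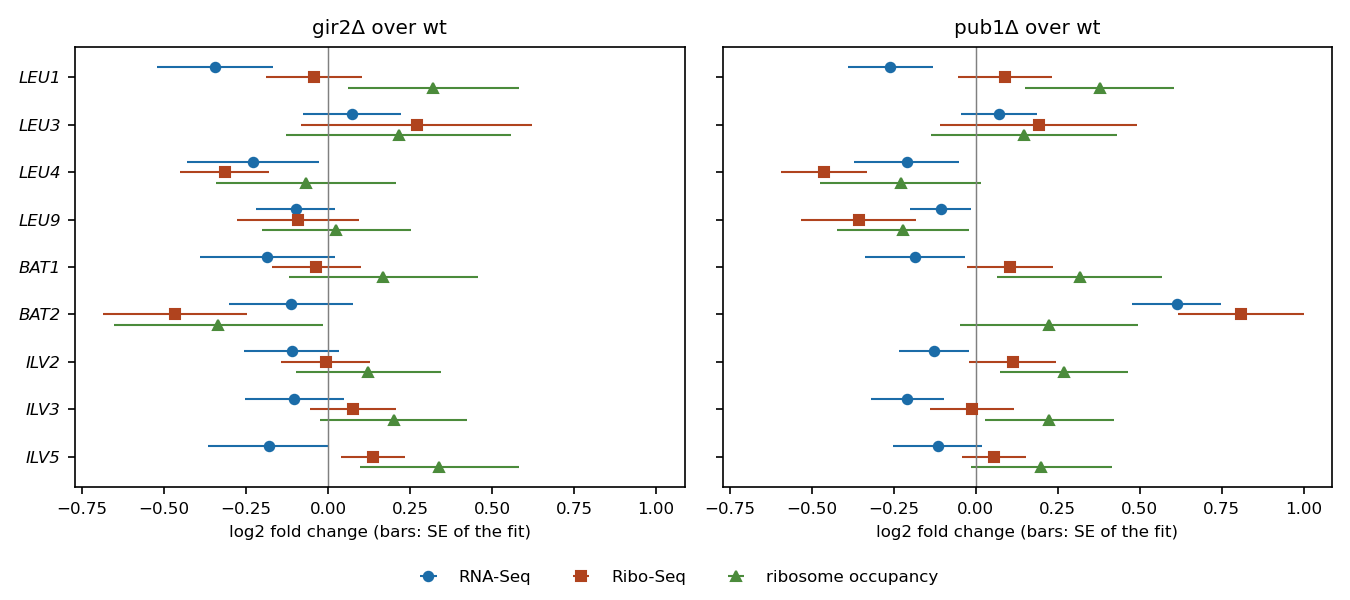
Log2 fold change of 9 members in gir2Δ over wt (left) and pub1Δ over wt (right), with its standard error, in RNA-Seq, Ribo-Seq and ribosome occupancy. No point passed an adjusted p of 0.05 in the edgeR model. BAT2 in pub1Δ, at 0.61 and 0.81, is the farthest from 0.

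Between gir2Δ and wt the members stayed close together. In RNA-Seq 0 of 9 were called, beside 0.0671% of all tested genes, and 0 had an unadjusted p under 0.05, beside 14.0%. DESeq2 called 0 of the 9 in gir2Δ RNA-Seq, Ribo-Seq and occupancy, beside 0.469%, 0.0447% and 0.112% of all tested genes. The largest change was that of LEU1, with 716, 757, 568 and 542 CPM in gir2Δ, against 662, 931, 869, 727 and 630.5 CPM in wt, and a log2 fold change of −0.34 (SE 0.18, adjusted p = 0.39). Its ranges overlapped. LEU1 was called with ComBat-seq (−0.34), beside 33.9% of all tested genes. Its value shrank to −0.06 with batch as 2 levels (adjusted p = 0.807). Of the 9, 8 had a negative and 1 a positive log2 fold change, with a median of −0.11, against −0.0026 over all tested genes. BAP2 had −0.32 (SE 0.13, adjusted p = 0.287), and its value turned to 0.07 without a batch term.

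In gir2Δ Ribo-Seq 0 of 9 members were called, beside 0.0224% of all tested genes, and 2 had an unadjusted p under 0.05, beside 8.43%. BAT2 had 260.5, 299, 184 and 201 CPM in gir2Δ, against 264, 278, 262 and 293 CPM in wt, and a log2 fold change of −0.47 (SE 0.22, adjusted p = 0.584), which was −0.22 without a batch term and −0.19 with batch as 2 levels. Within batch 1, BAT2 had 201 CPM in gir2Δ, against 264 and 293 CPM in wt. LEU4 had 357, 396, 401 and 334 CPM in gir2Δ, against 406, 91.2, 83.3 and 425 CPM in wt, and a log2 fold change of −0.32 (SE 0.13, adjusted p = 0.562). The wt range of LEU4 spans both batch levels, and its log2 fold change was 0.56 without a batch term and −0.01 with batch as 2 levels. Both genes and ILV5 were called with ComBat-seq, beside 25.4% of all tested genes. ILV6 had −0.38 (SE 0.14, adjusted p = 0.529). No member had gir2Δ and wt libraries without overlap in either assay, as was the case for 5.41% of all genes in RNA-Seq and 6.53% in Ribo-Seq. In ribosome occupancy 0 of 9 were called, beside 0% of all genes, and 0 had an unadjusted p under 0.05, beside 7.60%. The largest difference was that of ILV5, at 0.34 (SE 0.24, adjusted p = 0.791), and it was called with ComBat-seq, beside 22.6% of all tested genes. The other pathway gene with an unadjusted p under 0.05 in occupancy was ILV6, at −0.44 (SE 0.21, adjusted p = 0.639). The gir2Δ and pub1Δ comparisons share their wt libraries, and the values of a gene in the 2 comparisons are therefore not independent.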

How the data were processed

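RNA-Seq (14 libraries) and Ribo-Seq (12 libraries) of gir2Δ, pub1Δ and wt yeast were analysed. After trimming with cutadapt 2.10 and, for Ribo-Seq, removal of duplicates with seqkit, the authors discarded rRNA reads with Bowtie2 (version given as 1.2.3) and counted reads per gene with STAR 2.7.9a on the Ensembl R64-1-1 annotation. The deposited values are raw counts of the gene-sense strand per gene, without normalization, and gene counts of STAR leave out reads that map to several places. Genes reaching 10 CPM in 4 or more libraries of each assay (4473 of 6866 with any count) were fitted in edgeR 4.0.16 (R 4.3.3; quasi-likelihood F-test), with TMM factors, batch and strain as terms, and Benjamini-Hochberg adjustment over all tested genes, and calls were made where the adjusted p was below 0.05. Differences in ribosome occupancy came from the strain-by-assay interaction in a model of all 26 libraries, with the interaction of batch and assay in the model. The study corrected batch with ComBat-seq before testing strain, which is an alternative here. The wt libraries of batches 4 and 1 were compared alone.

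Log2 occupancy of library pairs used a pseudocount of 0.5 CPM, and correlations used log2 CPM with a prior count of 2. The limit of 3 counts for a count of 0 covers counting error only. The members, the lists and the tests were chosen with earlier results of these data known. Members with an unadjusted p under 0.05, or else the one with the largest change, are given with full statistics, and other pathway genes where their unadjusted p was under 0.05. Names, coordinates and promoters came from the RefSeq annotation of R64, to which 5956 of 7036 identifiers were matched, including 4463 of the tested ones, and were read with Biopython 1.88. Other settings were DESeq2 1.42.0, median-of-ratios factors, no filter or one at 30 CPM, ComBat-seq (sva 3.50.0), no batch term, batch as 2 levels (1 and 2, 3 and 4), the compared strains alone, a replicate block, and leaving out each library. The code was tested on simulated data.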

Additional observations from a re-analysis of the deposited data

Results flagged for a closer look

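Among 54 groups of 4 or 5 libraries examined (9 genes by 6 groups), 4 held a library far from the others of its group, and chance flags about 1 in 20 groups. LEU4 had 261 CPM in pub1Δ RNA-Seq replicate 5, against 115 to 151 CPM in the other pub1Δ RNA-Seq libraries, and 302 CPM in pub1Δ Ribo-Seq replicate 4, against 109.8 to 137 CPM in the others. LEU9 had 264 CPM in pub1Δ RNA-Seq replicate 5, against 112 to 134 CPM in the others. These 2 libraries are the only pub1Δ libraries of batch 1. ILV2 had 607 CPM in pub1Δ Ribo-Seq replicate 3, against 801 to 839.7 CPM in the others, and this library was the shallowest, with 540986 counts.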

How the results depend on the processing

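With ComBat-seq in place of a batch term, the number of called members, which was 0 in each strain comparison, became 1 for gir2Δ RNA-Seq, 3 for gir2Δ Ribo-Seq, 1 for gir2Δ occupancy, 1 for pub1Δ RNA-Seq and 2 for pub1Δ Ribo-Seq, and it was 0 for pub1Δ occupancy. The shares of all tested genes called in these fits, in this order, were 33.9%, 25.4%, 22.6%, 11%, 12.2% and 2.5%. For pub1Δ the number of called members was 1 with DESeq2, without a batch term and with batch as 2 levels in both assays, and for Ribo-Seq also 1 with no filter and with the compared strains alone, BAT2 in each case. In RNA-Seq the shares of all tested genes were 0.246% (DESeq2), 0.805% (no batch term) and 3.02% (2 levels). In Ribo-Seq they were 0.246%, 0.156% and 1.68%, with 0.583% for no filter and 0.38% for the compared strains alone. ComBat-seq also raised the count over all tested genes, to 1516, 1138 and 1013 for gir2Δ (RNA-Seq, Ribo-Seq, occupancy), against 3, 1 and 0 with a batch term, and to 491, 547 and 112 for pub1Δ, against 2, 6 and 0. With DESeq2 these counts were 21, 2 and 5 for gir2Δ and 11, 11 and 1 for pub1Δ, and over all settings but ComBat-seq they spanned 1 to 40, 1 to 16 and 0 to 11 for gir2Δ, 1 to 135, 1 to 75 and 0 to 1 for pub1Δ, and 812 to 1701, 829 to 1722 and 321 to 845 for wt batch 4 against batch 1. The cause was not tested. Between wt batches 4 and 1, 5 called members in Ribo-Seq became 2 with DESeq2 and 2 with all libraries in the fit, beside 21% and 29.7% of all tested genes. The 1 called in occupancy became 2 with all libraries in the fit, beside 18.2%. With single libraries left out, the counts were 3 to 7 in RNA-Seq, 2 to 4 in Ribo-Seq and 0 to 3 in occupancy. The shares of all tested genes then spanned 18.2% to 38%, 18.5% to 38.5% and 7.18% to 18.9%. In every strain comparison that could be fitted without a library, 0 members were called, beside at most 0.201% of all tested genes. Reversed signs were those of BAP2 in gir2Δ RNA-Seq (0.0691) and LEU4 in gir2Δ Ribo-Seq (0.56) without a batch term, and of LEU4 in pub1Δ Ribo-Seq (0.0092) with batch as 2 levels. Replicate numbers were not taken to pair the strains: the deviations of same-numbered libraries correlated at −0.172 to 0.024 (RNA-Seq) and −0.097 to −0.022 (Ribo-Seq) for gir2Δ and wt, and at −0.464 to 0.791 and −0.618 to 0.896 for pub1Δ and wt, with 3 of 5 and 3 of 4 pairs positive. With the replicate number as a replicate block, 0 members were called in each strain comparison, beside at most 0.224% of all tested genes. BAT2 then had log2 fold changes of 0.61 and 0.74 in pub1Δ. Libraries of the same strain, replicate number and batch were also taken as a block across both assays, although the labels do not state a shared culture. With this block, 0 members were called in gir2Δ occupancy, beside 0.246% of all tested genes. This block could not be fitted for pub1Δ, nor could the fits without gir2Δ replicate 4 or without pub1Δ Ribo-Seq replicate 4, since those libraries carry the estimate. Depth limits LEU3 most, at 12 to 71 footprint counts per library.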
